A study of Mus musculus with 20 samples.

Results

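The translation factors and aminoacyl-tRNA synthetases are the soluble proteins that load tRNAs and drive ribosomes along mRNAs. Their genes were taken from the array's annotation by symbol: the numbered initiation factors (Eif1 to Eif6), the elongation factors (Eef1 and Eef2), the release factors Etf1 and Gspt2, and the synthetases, whose symbols are built from the letter of an amino acid and "ars". The rule found 76 of the 13406 gene symbols annotated, on 99 probes, and used no measured value. Hepa1-6 cells, a line from a mouse liver tumour, were grown to confluence in flasks and sampled over 96 h. Control flasks were kept at 4 mM glutamine. Flasks with varied glutamine started at 0 mM, went to 4 mM at 24 h, back to 0 mM at 48 h and again to 4 mM at 72 h. All flasks had 25 mM glucose. On each of 20 spotted 2-colour arrays, RNA of varied flasks was compared with Cy3-labelled RNA of control flasks, for 11 numbered time points. The labels give neither the hour nor the glutamine level of a time point, so no glutamine level was assigned to any, and they do not say whether the arrays of a time point came from separate flasks. The p-values of tests at, between and among time points may therefore measure technical spread only. Those of the mean over the series rest on the spread among time points.

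Translation starts when eIF2 brings the initiator tRNA to the small ribosomal subunit, eIF3 and eIF1 steady the complex, and the eIF4 group binds the mRNA cap and unwinds the leader. Elongation factors then deliver each charged tRNA and move the ribosome on, and release factors end the chain. Each synthetase couples an amino acid to its tRNAs, and amino acid shortage leaves tRNAs uncharged, which activates the eIF2 kinase GCN2 (Eif2ak4), lowers general initiation through eIF2 and eIF2B, and raises translation of the transcription factor ATF4.

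Every value below is a log2 ratio of both channels, likely varied over constant glutamine, with each array's median set to 0. It says nothing of a gene's level, so that genes cannot be ranked by abundance. Arrays gave 4269 to 8269 values of 17280 probes. Arrays of a time point correlated across probes at 7 time points (r from 0.518 to 0.691), but not at time points 6 (r = 0.0539) and 10 (r = -0.0168). The second arrays of these time points were left out, and so was the first spot of each run of 20 probe numbers at time points 5 and 6. The remaining set has 18 arrays, and the set with all 20 arrays and all spots is given beside it. At time points 5 and 6 the raised spots were not limited to the first position: at time point 5 the medians of the first 4 positions were 2.72, 1.24, 0.46 and 0.14, against -0.12 elsewhere. Of the liver-cell markers, 5 of 10 were tested, none was higher and Alb (mean -0.60) and Krt8 (-0.30) were lower. Of the other cell types' markers, Aif1 was the 1 macrophage marker tested (0.73, higher), Kdr the 1 endothelial marker (0.21, higher), and of 3 fibroblast markers Col1a2 was higher (0.20) and Pdgfrb lower (-0.30). With all 20 arrays Kdr and Pdgfrb were not called (limma adjusted p = 0.0959 and 0.0529), and the calls of Alb, Krt8, Aif1 and Col1a2 were kept. The part of these shifts in the members' ratios was not tested, and ratios cannot show whether a marker was present.

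Of the 76 members, 62 had a value on at least 1 of the 20 arrays, and 14 had none. Members without any value were Eef1akmt1, Eef1akmt2, Eif2b2, Eif2s3x, Eif3a, Eif3e, Eif4a1, Eif4e3, Eif4ebp1, Etf1, Farsb, Hars2, Qars and Tars2. Qars charges glutamine itself, so that no statement on the glutaminyl-tRNA synthetase was possible here. Values at 9 or more time points, the limit for the test of the mean, were present for 26 members. The other 36 members with a value had between 0 and 10 of the 18 arrays. Why a spot was blank is not known here, so the 26 cannot stand for all 76.

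Over the whole series, 6 of these 26 members were higher in the flasks with varied glutamine and 1 was lower, and the sizes were small. The higher members were the eIF2 kinase Eif2ak1, the RNA helicase Eif4a3, the elongation factors Eef2 and Eef1g, the eIF2B subunit Eif2b1, and Eif5a. The lower member was Eif4b. These are 26 genes read against a background of 20.1% higher and 12.8% lower among all 4398 genes tested (32.9% in either direction), so the members' share lay near that of other genes. The counts by role given in the following paragraphs rest on 1 to 5 tested genes each and are to be read against the same percentages. Their median of 0.04 also lay close to the median of all genes, 0.02. With all 20 arrays, 5 members were higher and 2 lower, against a background of 13.6% and 9.05% of 4752 genes. More members were tested there, and the calls included Eif4g2 (0.52) and Eif3k (-0.41), which are not among the 26. Eef2 and Eif2b1 were no longer called (limma adjusted p = 0.0561 and 0.102). The mean of Eif4g2 there takes in first-position spots at time points 5 and 6 (1.51 and 0.66), where the median spot was at 2.72 and 1.28. The dyes were never swapped, so dye bias and a constant difference between flasks cannot be told apart for any of these means. In RNA of whole flasks, fewer cells of a type and less RNA per cell cannot be told apart either.

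**Figure D1:**
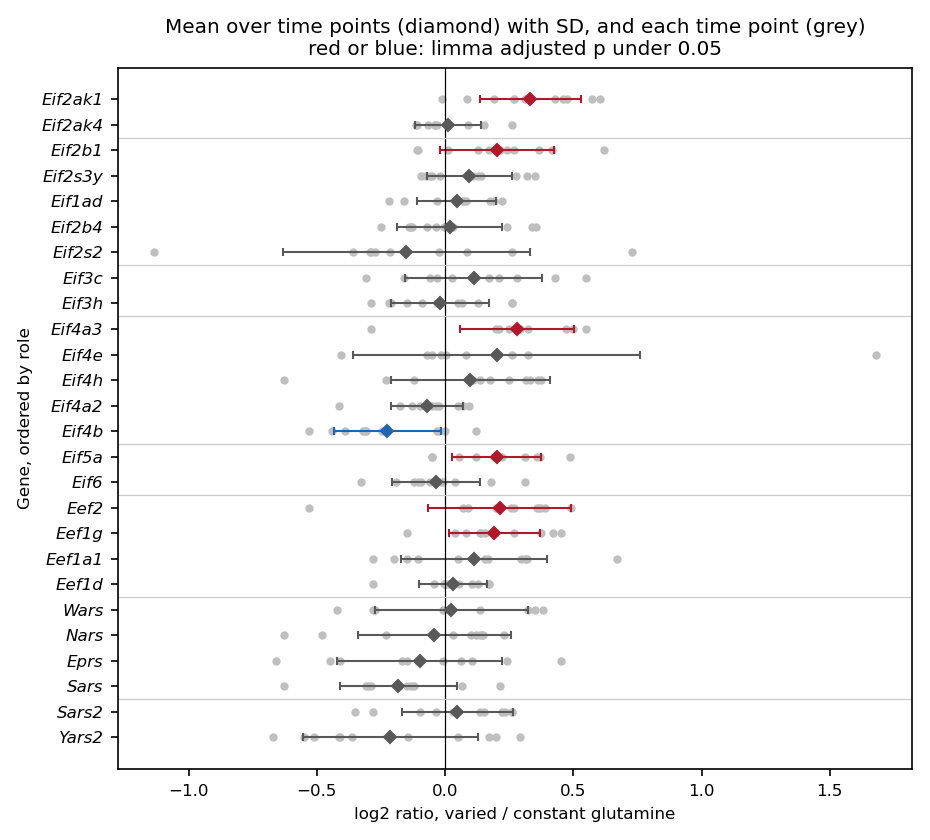
Mean log2 ratio (horizontal axis, array median at 0) of the 26 tested members over the time points, sorted by role, with 1 SD as the bar. Means ran from -0.23 for Eif4b to 0.33 for Eif2ak1, and members with adjusted p under 0.05 are marked.

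The 4 kinases that phosphorylate eIF2 were not equally visible. Eif2ak1 encodes HRI, the kinase known from red cells, where it senses haem. Its 11 time-point means had a median of 0.31, a low of -0.01 (time point 7) and a high of 0.61 (time point 1), and 17 of 18 arrays were above 0. The mean was 0.33 ± 0.20 (SD, n = 11 time points; limma adjusted p = 0.00107; 0.0108 with all 20 arrays). The 1 array below 0 was the first of time point 7, where a pair of probes disagreed: the probe with 20 values read 0.52 and the probe with 3 values -1.29. Eif2ak4, the GCN2 kinase that uncharged tRNAs activate, had time-point means from -0.12 to 0.26 around a median of -0.04, with no side that the arrays kept to. Its mean was 0.01 ± 0.13 (n = 9; limma adjusted p = 0.901). Eif2ak3 (PERK) had a value on 1 of 18 arrays and Eif2ak2 (PKR) on 0 of 18, so neither was tested.

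The group of eIF1, eIF2 and eIF2B had 9 members, of which 5 were tested and 1 was higher. Eif2b1, a subunit of the exchange factor that recycles eIF2, had time-point means from -0.11 to 0.62 with a median of 0.22. Both arrays of time point 1 were high (0.65 and 0.59), and those of time point 8 lay at -0.22 and 0.01. Its mean of 0.20 ± 0.22 (n = 11; limma adjusted p = 0.0297) missed the threshold with all 20 arrays (adjusted p = 0.102), and also without time point 1, 2, 4 or 7. Eif2b4, another subunit of the same factor, had a mean of 0.02 and ranged from -0.25 to 0.36. Eif2s3y, the Y-linked gene for the gamma subunit of eIF2, had a mean of 0.09. It is nearly identical in sequence to Eif2s3x, and the sources used here do not say whether the spot tells these copies apart. Eif1ad, an eIF1A-domain gene, had a mean of 0.04.

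Eif2s2 showed the widest movement of this group. It encodes the beta subunit of eIF2, and its mean over time points, -0.15 ± 0.48 (n = 10), was not called. At time point 1 its arrays read 0.09 and 0.43, and at time point 2 they read 0.32 and -0.15. At time points 3 and 4 they read -0.02, -0.03, -0.06 and -0.53. At time point 7 both arrays were far lower, at -1.30 and -0.97, below every other array of this gene. At time points 8 and 9 the values were back to between -0.40 and -0.03, and the single arrays of time points 5, 6 and 11 gave 0.73, -0.36 and -0.29. Among time points, Eif2s2 differed with limma adjusted p = 2.21e-08 (0.0356 with all 20 arrays).

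Tests between sets of time points placed this fall. Time point 7 lay below time points 3 and 4 by a log2 difference of -0.98 ± 0.17 (SE, 2 arrays against 4; limma adjusted p = 8.09e-06). Time points 8 and 9 lay above time point 7 by 0.89 ± 0.17 (adjusted p = 5.80e-05). With all 20 arrays the adjusted p-values were 0.0195 and 0.0359, at backgrounds of 3.93% and 3.15%. Of all genes tested, 12.9% were called between time points 7 and 3-4, and 10.4% between 8-9 and 7, against 2 of 18 and 2 of 16 members, so the share of members was near the background. No member was called between time points 3-4 and 1-2 (background 0.596%; 0 of 19 members) or between 8-9 and 3-4 (2.28%; 0 of 16). The contrasts share arrays, so they are not independent of each other.

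Yars2, which loads tyrosine onto tRNA in mitochondria, was the other member called between these sets, with the opposite sign. Its arrays read -0.62, -0.40, -0.58 and -0.15 at time points 3 and 4, and 0.38 and 0.02 at time point 7. At time points 8 and 9 they read -0.55, -0.55, -0.29 and -0.54. Time point 7 was thus higher than both of these sets. The log2 difference of time point 7 from 3-4 was 0.64 ± 0.17 (SE; limma adjusted p = 0.00524), and that of 8-9 from 7 was -0.68 ± 0.17 (adjusted p = 0.00271). Both calls were lost with all 20 arrays (adjusted p = 0.253 and 0.257), although all arrays of these time points are in both sets.

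**Figure D2:**
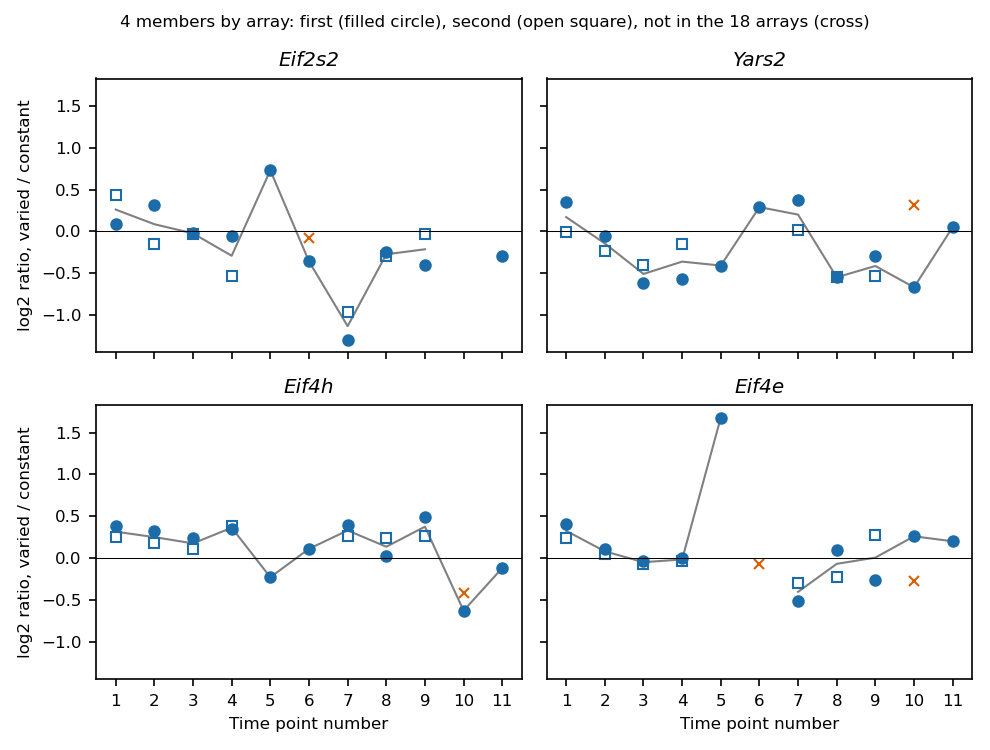
Log2 ratio (vertical axis, array median at 0) of Eif2s2, Yars2, Eif4h and Eif4e against time point number, with points for arrays lines through time-point means, and crosses for arrays outside the 18. Eif2s2 is lowest at time point 7 (-1.30 and -0.97), where Yars2 reads 0.38 and 0.02, Eif4h is lowest at time point 10 (-0.63), and Eif4e is highest at time point 5 (1.68).

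The stretches before the gene starts of members that differed among time points were read from the RefSeq promoter table (build GRCm38.p6), which held a window for 55 of the 76 members. A pair of short motifs was searched on both strands of all windows, which run from 250 bases before to 50 bases after a start: CACGTG, an E-box bound by MYC and related factors, and TGATGNAAN, the core of the element that ATF4 binds. CACGTG was in 15 of 70 member windows (21.4%), against 7.15% of all 32851 windows. TGATGNAAN was in 5 (7.14%), against 3.95%. Windows of 1 gene can overlap, and a match is a stretch of letters, not a known binding site. The 4 stretches printed here are the 250 bases before the start, read 5′ to 3′ on the gene's strand: Eif2s2 at chr2:154892907-154893156 (minus strand), Yars2 at chr16:16302715-16302964 (plus strand), Eef2 at chr10:81176381-81176630 (plus strand) and Eif4h at chr5:134639410-134639659 (minus strand). They are shown because Eif2s2 and Yars2 were the members called between sets of time points, and Eef2 and Eif4h are examples of members that differed among time points and have an E-box, which is in capitals. The call of Eef2 among time points is the weakest of the 9 made and was lost with all 20 arrays.
Eif2s2: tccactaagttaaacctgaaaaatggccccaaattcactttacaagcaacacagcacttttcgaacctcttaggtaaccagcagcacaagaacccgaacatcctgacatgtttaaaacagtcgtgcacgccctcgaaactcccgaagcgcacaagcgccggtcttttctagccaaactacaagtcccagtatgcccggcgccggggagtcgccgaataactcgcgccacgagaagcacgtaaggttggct
Yars2: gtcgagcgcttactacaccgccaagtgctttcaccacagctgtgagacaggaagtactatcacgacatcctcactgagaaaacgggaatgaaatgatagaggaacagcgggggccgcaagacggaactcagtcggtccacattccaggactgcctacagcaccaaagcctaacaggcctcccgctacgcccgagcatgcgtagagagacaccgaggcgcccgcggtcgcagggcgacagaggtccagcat
Eef2: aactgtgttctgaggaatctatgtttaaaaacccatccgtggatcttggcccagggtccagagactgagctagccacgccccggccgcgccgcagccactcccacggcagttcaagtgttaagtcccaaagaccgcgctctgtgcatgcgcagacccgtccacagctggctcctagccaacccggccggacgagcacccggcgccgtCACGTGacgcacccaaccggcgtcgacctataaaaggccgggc
Eif4h: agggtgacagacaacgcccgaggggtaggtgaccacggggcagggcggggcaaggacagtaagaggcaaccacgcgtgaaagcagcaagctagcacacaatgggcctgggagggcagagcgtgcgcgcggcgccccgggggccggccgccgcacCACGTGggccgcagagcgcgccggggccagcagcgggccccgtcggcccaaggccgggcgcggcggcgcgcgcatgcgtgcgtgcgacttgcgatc
Neither motif was in the windows of Eif2s2 and Yars2. The E-box of Eef2 lay 43 bases before the start and that of Eif4h 96 bases before it. Other members with an E-box were Eif4e and Eif5a among those tested, and Eef1aknmt, Eef2k, Eif3a, Eif3f, Eif3k, Eif4a1, Farsb, Iars and Tars among those not tested. The ATF4 core was in windows of Eef2k, Eif2s3x, Iars, Tars and Yars, none of which was tested, so the arrays give no view of members with that motif.

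Among time points as a whole, 9 of 25 members with a value on 14 or more of the 18 arrays differed, against 31.2% of all 4023 genes, so the members' share was again close to the background. The 9 were Eif4e, Eif2s2, Yars2, Eif4h, Wars, Eprs, Eef1a1, Nars and Eef2. With all 20 arrays Eif4e, Eif2s2 and Eif4h were called (background 7%). When the variance was taken from each gene alone rather than shared across genes, 0 of 25 members were called by the F-test, 6 had an unadjusted p under 0.05, and 146 of all 4023 genes were called (3.63%). An unadjusted p under 0.05 was then found for 23.3% of all genes, so the members again lay at the background.

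**Figure D3:**
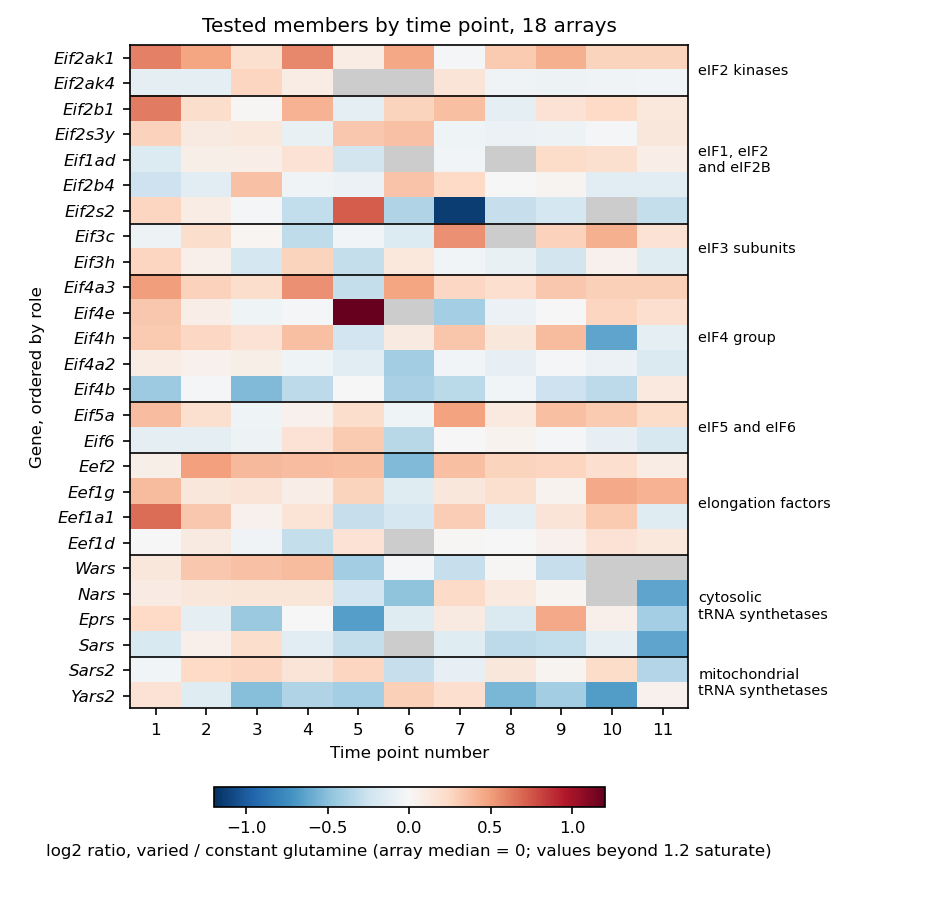
Log2 ratio (colour, array median at 0) of the 26 tested members, sorted by role, at the 11 numbered time points, with grey where no value was given. Eif2s2 is lowest at time point 7, Eif4e highest at time point 5, and Eif2ak1 and Eif4a3 are above 0 at 10 of 11 time points each.

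The eIF4 group, which binds the cap and unwinds the mRNA leader, had 13 members, of which 5 were tested, with 1 higher and 1 lower. Eif4a3 belongs by sequence to the eIF4A helicases but works in the exon junction complex. Its means reached from -0.29 (time point 5) to 0.55 (time point 4) with a median of 0.29, and 17 of 18 arrays were above 0. The mean was 0.28 ± 0.22 (n = 11; limma adjusted p = 0.00547; 0.0168 with all 20 arrays). Eif4b, which stimulates the helicase eIF4A, had its lowest mean at time point 3 (-0.53) and its highest at 11 (0.12), with a median of -0.31, and 13 of 17 arrays were below 0. Its mean was -0.23 ± 0.21 (n = 11; adjusted p = 0.0147; 0.0283 with all 20 arrays). Without setting the array medians to 0, the mean of Eif4b was 0.031, since the median gene then lay at 0.28. Eif4b was therefore lower relative to other genes, and not lower in the values as deposited.

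Eif4a2, a helicase of this group, was spotted 17 times, and 10 of these spots had a value on the 18 arrays. The 4 spots with a value on 15 or more arrays had an SD within an array of 0.0965 (median over 18 arrays; range 0.0386 to 0.185). This SD leaves out the less covered spots, which can lie further apart. A spot with 13 values read -0.44 on the first array of time point 1, where the 4 spots lay between 0.31 and 0.43. On the second array of time point 9 it read 0.46, against -0.31 to -0.14. On the first array of time point 3 it read 0.08, within their range of 0.04 to 0.14. The mean of Eif4a2 was -0.07, and all but 1 of its time-point means lay between -0.18 and 0.09, the other being -0.41 at time point 6. Its near-identical relative Eif4a1 had no value.

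Eif4h, which acts with the helicase like Eif4b, was between 0.03 and 0.49 on all 14 arrays of the 7 time points with a pair of arrays. The single arrays of time points 5 (-0.23), 10 (-0.63) and 11 (-0.12) were below 0, and that of time point 6 read 0.11. The array of time point 10 that was left out of the fit read -0.42. Eif4h differed among time points (limma adjusted p = 0.00874; 0.0414 with all 20 arrays), and this rests on the single arrays, since over the 14 arrays of 7 time points the adjusted p was 0.893. Its mean of 0.10 was not called.

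Eif4e encodes the cap-binding protein itself. It read 1.68 at time point 5 and between -0.51 and 0.41 on the 16 other arrays with a value. Its spot is at the second of 20 positions, where the median spot of that array was at 1.24. The F-test gave adjusted p = 1.06e-08 (limma; 0.0320 with all 20 arrays), but 0.0954 without the first 4 positions at time points 5 and 6. At time point 7 its arrays read -0.51 and -0.30, and the mean there was lower than 0 (adjusted p = 0.0203; 0.128 with all 20 arrays). The proteins that block eIF4E, Eif4ebp1 and Eif4ebp2, had values on 0 and 3 of 18 arrays and were not tested.

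The symbol rule found 12 subunits of eIF3, the large scaffold on the small ribosomal subunit. They were poorly covered, since 2 had enough values. Eif3c had a mean of 0.11 and Eif3h of -0.02, and neither was called. Eif3k had values on 9 of 18 arrays at 8 time points, below the limit set. With the limit lowered to 6 time points, its mean was -0.41 ± 0.19 (n = 8 time points, all negative; limma adjusted p = 0.00166), and it passed the usual limit with all 20 arrays (-0.41 ± 0.18, n = 9; adjusted p = 0.00191). With the median of each block of 540 neighbouring probe numbers set to 0, its mean was -0.15 ± 0.15, 2 of 8 time points were positive and it was not called (adjusted p = 0.0766). Eif4g2, which has a role in initiation without the cap, had 10 of 18 arrays and a mean of 0.38 at 8 time points (limma adjusted p = 0.0258), which became 0.27 with block centring (adjusted p = 0.0588).

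The group of elongation factors was sorted by symbol and also holds their kinase and methyltransferases. Of its 11 members, 4 were tested and 2 were higher (20.1% of all genes were). Of these calls, that of Eef2 was lost with all 20 arrays and with block centring. Eef1g, the gamma subunit of the exchange factor for eEF1A, had its lowest mean at time point 6 (-0.15) and its highest at 10 (0.45), with a median of 0.16, and 16 of 18 arrays were above 0. Its mean was 0.19 ± 0.18 (n = 11; limma adjusted p = 0.0213; 0.0145 with all 20 arrays). Eef1d, the delta subunit of the same exchange factor, had a mean of 0.03 ± 0.13 and was not called. Whether these subunits differed from each other was not tested.

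Eef2, the factor that moves the ribosome along the mRNA, read -0.53 at time point 6, while its 10 other time-point means lay between 0.07 and 0.49. Its mean was 0.21 ± 0.28 (n = 11; limma adjusted p = 0.0474; 0.0561 with all 20 arrays). The call held without time point 6 (0.29, adjusted p = 0.00130) and was lost when any other time point was left out. Eef2 also differed among time points (adjusted p = 0.0463), which was lost with all 20 arrays (0.437). Its kinase Eef2k had a value on 0 of 18 arrays.

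Eef1a1 delivers charged tRNAs to the ribosome. Its arrays of time point 1 read 0.85 and 0.49, its highest time-point mean, and that mean was above 0 (0.67 ± 0.15 SE; limma adjusted p = 0.000854; 0.114 with all 20 arrays). The single arrays of time points 5, 6 and 11 were below 0 (-0.28, -0.20 and -0.15). Eef1a1 differed among time points (adjusted p = 0.0247), but not with all 20 arrays (0.547), and its mean of 0.11 was not called. Eef1a2, a close relative in sequence, had no value on the 18 arrays.

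Eif5a, which helps the ribosome through difficult stretches and carries the modified lysine hypusine, ran from -0.05 to 0.49 with a median of 0.21, and 13 of 16 arrays were above 0. Its mean was 0.20 ± 0.17 (n = 11; limma adjusted p = 0.0156; 0.0219 with all 20 arrays). The 32 blocks of 540 neighbouring probe numbers had medians between -0.37 and 0.32 on these arrays, and with each block's median set to 0 the mean of Eif5a was 0.05 (adjusted p = 0.355). Under that setting Eif2s3y was higher (0.19, adjusted p = 0.00987), and Eef2 and Eif2b1 missed the threshold (0.0632 and 0.0722). Eif6, which keeps the ribosomal subunits apart, had a mean of -0.04, and its probes disagreed, at 0.12 and -0.27. The release factors were not tested: Etf1 had no value and Gspt2 had 5 of 18 arrays.

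**Figure D4:**
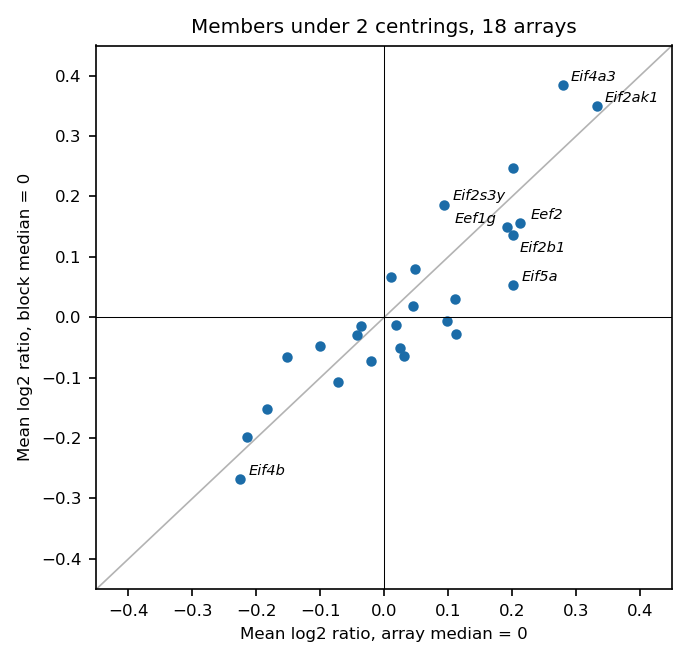
Mean log2 ratio of the 26 tested members with each array's median set to 0 (horizontal axis) and with the median of each block of 540 probe numbers set to 0 (vertical axis), 1 point per gene and a line where both are equal. Eif5a moves from 0.20 to 0.05, Eif2s3y from 0.09 to 0.19, and Eif4b stays below 0 (-0.23 and -0.27).

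None of the 6 tested synthetases, 4 cytosolic and 2 mitochondrial, was higher or lower over the series. The lowest mean of the cytosolic group was that of Sars, for serine, at -0.18 (limma adjusted p = 0.0619), and the highest that of Wars, for tryptophan, at 0.02, with Nars at -0.04 and Eprs at -0.10 between them. Of the mitochondrial members, Yars2 had -0.21 ± 0.34 (adjusted p = 0.0827) and Sars2 0.05. Of the 4 cytosolic members, Wars, Eprs and Nars differed among time points, against 31.2% of all genes, and 4 genes are too few to set a share against that background.

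Wars was above 0 on all 7 arrays with a value at time points 1 to 4, from 0.06 to 0.59. From time point 5 on, 6 of 7 arrays were below 0, from -0.44 to -0.01, and the other, at time point 8, read 0.32. It had no value at time points 10 and 11 (F-test, limma adjusted p = 0.0162; not tested with all 20 arrays). Nars, for asparagine, whose amino acid is made from glutamine's amide nitrogen, lay between -0.12 and 0.41 on the 13 arrays of the paired time points. On the single arrays it was at -0.23, -0.48 and -0.63 (adjusted p = 0.0274), and over the 14 arrays of 7 time points the adjusted p was 0.985. Eprs joins the enzymes for glutamate and proline in 1 chain. It read -0.66 at time point 5, -0.45 at time point 3 and 0.45 at time point 9, each on 1 array (adjusted p = 0.0162). The call of Eprs was lost with block centring (adjusted p = 0.260) and over the 14 arrays of 7 time points (0.119). With all 20 arrays the adjusted p-values of Eprs and Nars were 0.467 and 0.273.

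At the 7 time points with a pair of arrays, members were called 24 times in 159 tests, 17 times higher and 7 times lower, spread over 13 members. The calls fell mainly on time points 4 (7 of 24 members; background 24.4%), 1 (6 of 25; 20.5%) and 7 (5 of 23; 28.4%). At time point 2 there were 2 calls of 24 (3.83%), at time point 9 2 of 22 (10.5%), and at time points 3 and 8 1 each, of 21 (12.1%) and 20 (7.41%). At time point 1, Eef1a1, Eif2b1 and Eif2ak1 were highest (0.67, 0.62 and 0.61) and Eif4b was lower (-0.44). At time point 4, Eif2ak1, Eif4a3 and Eif2b1 were highest (0.57, 0.55 and 0.42) and Yars2 was lower (-0.36). With all 20 arrays, 1 of these 24 calls was kept, Eif2s2 at time point 7 (limma adjusted p = 0.00179; background 9.38%). Time point 10 had a pair of arrays in that set alone, and there Eif4h was lower (-0.53; background 10.1%). At time points 1 and 4 no member was then called, against 1.04% and 2.23% of all genes.

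A component with a period of 5 time points was called by limma for 0 of 26 members and 0% of all 4398 genes. At an unadjusted p under 0.05 there were 3 members, Yars2, Eif4e and Nars, and 256 genes (5.82%). The period assumes regular sampling, which the labels do not tie to the time point numbers.

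Genes that act beside the members were read from lists drawn up with earlier results of these data known. The lists of this and the next paragraph held 1 to 7 tested genes each. Of all genes tested, 20.1% were higher and 12.8% lower, and lists this short are too few to set against these shares. Of the 3 tested poly(A) and cap-side regulators, Mcts1, a factor for reinitiation, was lower (-0.96 ± 0.65, n = 9; limma adjusted p = 0.00105). Of 4 genes that signal to translation through mTORC1 and MAP kinases, 2 were higher: Deptor (0.34), an mTOR inhibitor, and Sesn2 (0.22), a leucine sensor that restrains mTORC1. Of 7 genes of eIF2 dephosphorylation and the ATF4 response, 1 was higher and 3 were lower. Ddit3, the transcription factor CHOP, was higher (0.31 ± 0.37, n = 11; adjusted p = 0.0250), and the phosphatase subunit Ppp1ca (-0.65), Cebpb (-0.58) and the serine synthesis enzyme Phgdh (-0.20) were lower. Phgdh was not called with all 20 arrays (adjusted p = 0.312).

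Of 4 genes of elongation factor modification and ribosome rescue, 2 were higher. Ltn1, the ligase that marks stalled chains, was above 0 at 11 of 11 time points (0.30 ± 0.14; limma adjusted p = 0.000857). Dohh, which completes hypusine on eIF5A, had 0.24 ± 0.32 (adjusted p = 0.0392; 0.0827 with all 20 arrays). Of 4 genes of the synthetase scaffold and enzymes outside the symbol rule, Qrsl1, a subunit of the mitochondrial enzyme that makes glutaminyl-tRNA from glutamyl-tRNA, was higher (0.34 ± 0.20, n = 11; adjusted p = 0.000996). Gatb, another subunit of that enzyme, had a mean of -0.14 ± 0.36 (n = 11; adjusted p = 0.260) and was not called. It was below 0 at 8 of 11 time points and differed among time points (F-test, limma adjusted p = 0.000156). The 1 mitochondrial translation factor tested, Tsfm, had a mean of 0.02 and differed among time points (adjusted p = 3.44e-06). Pelo and Ppp1r15b of the other lists, not called in the test of the mean, also differed (limma adjusted p = 7.63e-07 and 0.00443). Of all genes, 31.2% did.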

How the data were processed

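Per the labels, total RNA of Hepa1-6 flasks was hybridised to 2-colour arrays. The authors deposited 1 column of ratios per array, taken here as log2 values; their base, direction and normalization are not given in the sources used here, and base 2 and varied over constant are assumptions. For 1 array of time point 4, the channel 2 label says its cells lacked glutamine, taken here for a slip. Spots without a value stayed empty, and the number of arrays limits the precision.

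Each array was centred on its median and probes of a symbol were averaged. In R 4.3.3 with limma 3.58.1, the mean of time points was tested against 0 (genes with 9 or more of 11 time points), and a moderated F-test, single time points and sets of time points were fitted with 1 mean per time point (14 or more of 18 arrays), with Benjamini-Hochberg adjustment over all genes at 0.05. The spread in the second fit comes from 7 time points. The mean test takes time points as independent. The tests were also run on simulated data with independent noise and added shifts. These data held no position, block or dye effects, so the run cannot show how the tests behave under them. Alternatives were the 20 arrays, no centring, centring by block of 540 probe numbers, other limits, a replicate block, and each array or time point left out.

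The members and lists were chosen with earlier results of these data known. Named are members called in the mean or F-test, up to 3 each way per single time point or set, fixed regulators, and each role group's extremes; other members only with their number of arrays. Other pathway genes are named where called in the test of the mean, up to 4 a list. Tsfm, Gatb, Pelo and Ppp1r15b are named for their F-test. A further gene of the mTORC1 list called by the F-test is not named. Eif3k and Eif4g2 are given outside these rules, chosen after their values were seen.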

Additional observations from a re-analysis of the deposited data

Results flagged for a closer look

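The effects of Eif2s2 and Yars2 differed between sets of time points by limma's test of the difference. Eif2s2 lay at -0.98 at time point 7 relative to 3-4 and rose by 0.89 from 7 to 8-9. Yars2 changed by 0.64 and then by -0.68 over the same steps, and these calls were lost with all 20 arrays. Both genes were also called with the median of each block of 540 probe numbers set to 0 (Eif2s2 -0.87 and 0.79, Yars2 0.57 and -0.70), a setting chosen after seeing the data.

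Spots left out of the fits carried high ratios. Eif4g2 read 1.51 at time point 5, and Eif2ak2 read 2.75 at time point 5 and 1.62 on the first array of time point 6. These spots are at the first of 20 positions, where the median spot was at 2.72 and 1.28 on these arrays. Eif2ak2 had no other value on the 20 arrays.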

How the results depend on the processing

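Without centring, 20 members were higher and 0 lower and the members' median was 0.30, as 2946 genes were then higher and 69 lower. Among members called with or without centring, Eif3h (0.24), Eif4a2 (0.19), Eif4b (0.031) and Eif6 (0.22) turned positive. Sign changes of members called in neither setting are not listed here. With all 20 arrays, 2 members were lower, 3 differed among time points, 2 calls were made at single time points (1 at time point 10, not tested before) and 2 between sets. Members called among time points numbered 5 with centring by block (27.7% of all genes tested), 5 with arrays scaled to one spread (20.7%), 5 with a value on all 18 arrays (36.2%, fewer genes tested), 3 over the 14 arrays of 7 time points (13.5%), 3 with the first 4 positions left out and block centring (22.5%), and 0 with gene-wise variance (3.63%). Gene-wise variance also left 3 calls at single time points, for which the share of all genes was not counted. With scaling and with all 18 arrays, 4 of the 5 were among the 9 members given in the report. The 14 arrays, the first 4 positions, gene-wise variance and the joint setting of 6 time points with block centring were added after seeing the data. The replicate block gave 7 (28.5% of all genes tested). Arrays of a time point had a consensus correlation of 0.348, and array numbers share only a number across time points. Members lower over the series were 2 with 6 or more time points, 2 with this limit and block centring, and 2 with time point as a random block. Leaving out 1 time point gave 4 to 6 higher and 1 to 2 lower members (2 without time point 3, 6 or 7). For these tests of the mean, the shares of all genes were not counted, so the counts cannot be set against a background. Leaving out 1 array gave 5 to 12 members that differed among time points. There were 5 without the second array of time point 2 (25.4% of all genes tested) and 12 without the second array of time point 7 (35%). The cause of these changes was not tested. Eif2ak1, Eif4a3 and Eef1g were called in all 10 alternatives and with any 1 time point left out. The 50 members with too few values were not tested.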
